A study of Mus musculus with 6 samples.

Results

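The genes described here are 5 genes of the plasminogen activation system, out of 54146 genes in the deposited table: Plaur, which encodes the urokinase receptor uPAR, Plau and Plat, which encode the plasminogen activators uPA and tPA, and Serpine2 and Serpinb2, which encode the inhibitors protease nexin-1 and PAI-2. They were chosen by name, and all 5 were found in the table once. RNAseq was carried out on 6 libraries of D2A1, a mouse mammary tumor cell line, grown as 3D spheroids in Matrigel in DMEM with 10% FBS. 3 libraries came from spheroids treated with recombinant GST (rGST), the control protein, and 3 from spheroids treated with recombinant SLURP1 (rSLURP1), with 50 nM of either protein by the sample labels and harvest on day 5 by the methods of the study. The comparison addressed which transcripts differ after SLURP1 treatment in vitro. All 6 libraries came from 1 cell line with the genotype labelled control, and the labels do not say whether the 3 libraries of a treatment were separate cultures, so p-values measure the spread between these libraries, which may be technical.

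uPA and tPA are serine proteases that cut plasminogen to plasmin, a broad protease that degrades fibrin and, directly and through metalloproteinases, extracellular matrix. uPAR, a surface protein on a lipid anchor, holds uPA at the plasma membrane, binds the matrix protein vitronectin and signals through integrins and receptor tyrosine kinases. Serpins trap both activators, and the complexes are cleared by LRP1. The system is well studied in breast cancer for its part in invasion, and the signalling from uPAR through integrins has been studied in tumor dormancy. uPAR is built of LU domains, the fold that SLURP1, a small secreted protein, also has.

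Plaur rose with rSLURP1 and Plat fell, so the order of these transcripts was reversed between the treatments, while Plau was low in every library and Serpine2 and Serpinb2 were at or near 0. TPM is corrected for transcript length, so that levels can be compared between genes. In rGST spheroids Plat was highest at 42.5 ± 1.32 TPM (SD, n = 3), followed by Plaur at 17.1 ± 2.22 TPM and Plau at 1.53 ± 0.516 TPM. In rSLURP1 spheroids Plaur was highest at 38.6 ± 4.91 TPM, followed by Plat at 5.58 ± 1.38 TPM and Plau at 0.720 ± 0.193 TPM. Neighbours in either order did not overlap between libraries, except Serpine2 and Serpinb2 at the bottom, whose values overlapped.

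The treatments were compared by limma on log2(TPM + 1), over 12301 genes that reached a TPM of 1 in 3 or more libraries, and p-values were adjusted over all of them (Benjamini-Hochberg). On the log2(TPM + 1) scale a fold change comes out too small where TPM is low. Of the 5 genes, 3 passed the filter, Plaur and Plat in all 6 libraries and Plau through the rGST libraries alone. With the threshold at an adjusted p of 0.05, 1 of the 3 was higher with rSLURP1, beside 8.66% of all tested genes, and 2 were lower, beside 58.5%. At a fold change of at least 2 as well, Plaur was among the higher genes, 1.15% of those tested, and Plat among the lower genes, 7.06%. The count of 2 is not support for a change, since Plau passed the filter only through the treatment in which it was higher. The median log2 fold change of all tested genes was -0.33, and scaling each library by the median ratio of its genes moved that median by 0.32. With that scaling 26.0% of the genes were higher and 25.2% lower, 2.49% and 3.76% at a fold change of at least 2, and the calls of Plaur and Plat remained while that of Plau was lost. A count called lower is therefore read below beside 58.5% as deposited and 25.2% after scaling.

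**Figure D1:**
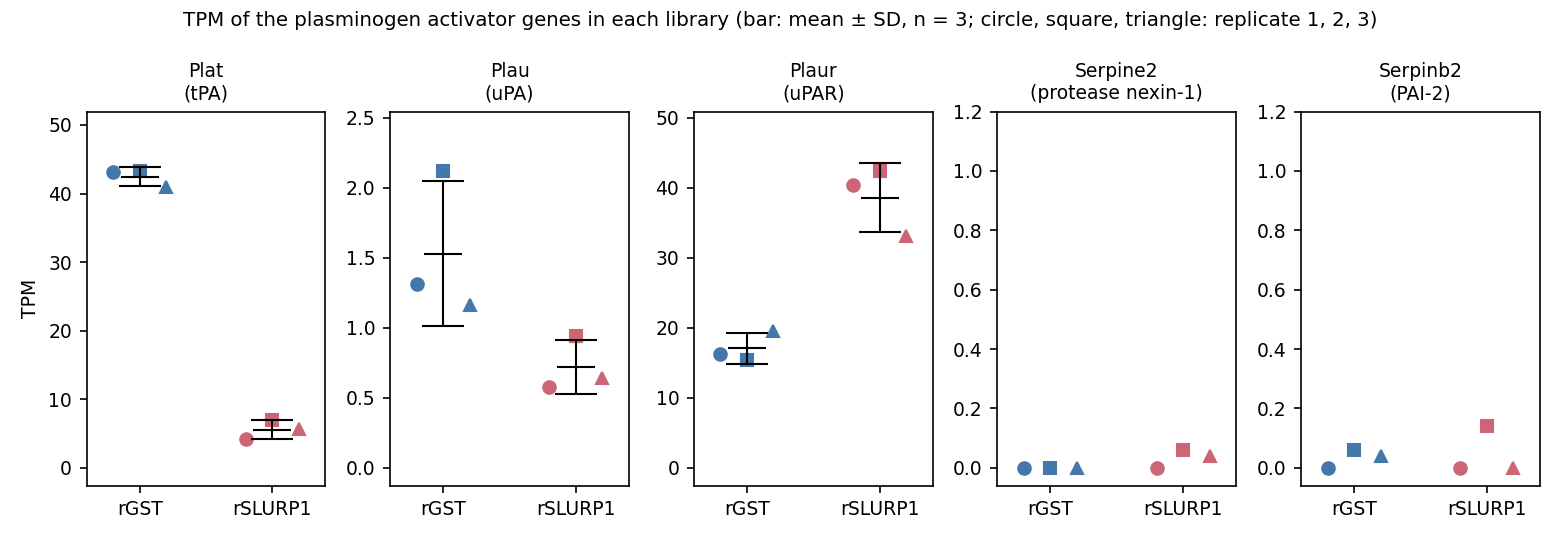
TPM (linear axes, each with its own range and including 0) of Plat, Plau, Plaur, Serpine2 and Serpinb2 in the 3 rGST libraries (blue) and the 3 rSLURP1 libraries (red), with circles, squares and triangles for replicates 1, 2 and 3 and bars for the mean ± SD, left out for Serpine2 and Serpinb2. Plat is lower and Plaur is higher in all 3 rSLURP1 libraries than in any rGST library, and Serpine2 and Serpinb2 stay at 0.14 TPM or less.

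Plaur (ENSMUSG00000046223.10), the receptor, is annotated on chr7 from 24462484 to 24475968 on the plus strand (GRCm38, GENCODE M21), a protein-coding gene with 6 transcripts. The 300 bases around its start are shown because Plaur was the 1 gene of the 3 tested that rose, and AP-1 factors, described below, are among those known to act on uPAR expression. The window is chr7:24462233-24462532, plus strand, with 250 bases before the start site and 50 from it (RefSeq, GRCm38.p6), and capitals mark the matches to an AP-1 motif and to GC boxes.

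Plaur promoter window: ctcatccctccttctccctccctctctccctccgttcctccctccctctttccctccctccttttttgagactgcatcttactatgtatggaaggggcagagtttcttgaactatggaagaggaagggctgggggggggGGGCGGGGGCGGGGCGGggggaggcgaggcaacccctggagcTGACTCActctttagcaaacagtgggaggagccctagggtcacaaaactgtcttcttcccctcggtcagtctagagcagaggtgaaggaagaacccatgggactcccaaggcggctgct

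The window had a GC content of 59.3%. It was searched on both strands for AP-1 (TGANTCA), the GC box (GGGCGG), the TATA box (TATAAA), a KLF motif (CCCCACCC) and a TEAD motif (GGAATG). An AP-1 match, TGACTCA, began at base -69 from the start site, and 3 GC boxes began at -111, -105 and -100 in a run rich in G, the last 2 of them overlapping by 1 base. The other motifs were not found in these 300 bases. Among the 32851 RefSeq promoter windows of the same length, 7.81% held the AP-1 motif, 35.7% the GC box, 13.6% the TATA box, 9.99% the KLF motif and 14.7% the TEAD motif. A window was also given for Serpine2, with a GC content of 77.7% and 6 GC boxes. Windows for 2 start sites of Serpinb2 had 35.3% and 39.3% GC. Each held 1 AP-1 motif, beginning at -94 and -181, and 1 TATA box, beginning at -29 and -116. Both matches are shifted by the same number of bases between the windows, so they are likely the same sites counted from 2 starts. All matches given here are matches of letters and were not tested for binding.

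Plaur was at 16.29, 15.35 and 19.57 TPM in rGST replicates 1 to 3 and at 40.36, 42.42 and 33.07 TPM in rSLURP1 replicates 1 to 3. Every rSLURP1 library was above every rGST library, with the smallest gap between rSLURP1 replicate 3 and rGST replicate 3. The mean TPM was 2.26-fold higher with rSLURP1, and the log2 fold change of TPM + 1 was 1.13 (SE 0.118, 95% confidence interval 0.86 to 1.41, adjusted p = 0.000119 in limma). Relative to the median of all tested genes the log2 fold change was 1.46, and Plaur ranked 133 from the highest of 12301 genes. In rGST spheroids 57.8% of the transcripts with a mean TPM of 1 or more were above Plaur, and in rSLURP1 spheroids 28.0% were. The exact permutation test of the gene alone gave a two-sided p of 0.1, the smallest that 3 libraries against 3 allow, and it gave the same for Plat and Plau.

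Plat (ENSMUSG00000031538.6) encodes tPA, the activator that binds fibrin, and lies on chr8 from 22757727 to 22782844 on the plus strand, with 3 transcripts. It was at 43.18, 43.3 and 40.96 TPM with rGST and at 4.15, 6.91 and 5.69 TPM with rSLURP1. The groups were far apart, and the rGST libraries lay within 3 TPM of each other. The mean was 7.61-fold lower with rSLURP1, with a log2 fold change of -2.75 (SE 0.145, 95% confidence interval -3.08 to -2.41, adjusted p = 5.47e-06 in limma). Relative to the median of all tested genes it was -2.42, and Plat ranked 63 from the lowest. In rGST spheroids 31.0% of the transcripts with a mean TPM of 1 or more were above it, and in rSLURP1 spheroids 78.4%.

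Plau (ENSMUSG00000021822.3) encodes uPA, the ligand of uPAR and the activator of plasminogen on cell surfaces, and lies on chr14 from 20836660 to 20843385 on the plus strand, with 2 transcripts. It was at 1.31, 2.12 and 1.16 TPM with rGST and at 0.58, 0.94 and 0.64 TPM with rSLURP1. All of these values are low: in rGST spheroids 95.3% of the transcripts with a mean TPM of 1 or more were above Plau, and its mean in rSLURP1 spheroids was below 1. The groups did not overlap, but with no rSLURP1 library at a TPM of 1 the filter could only be passed if all 3 rGST libraries were above them. The mean was 2.12-fold lower with rSLURP1 on the TPM scale, and the log2 fold change of TPM + 1 was -0.54 (SE 0.193, 95% confidence interval -0.99 to -0.09, adjusted p = 0.0377 in limma), and -0.22 relative to the median of all tested genes. With a pseudocount of 0.1 it was -0.97 (adjusted p = 0.0406 in limma). The call was lost with no filter (adjusted p = 0.0668 in limma), with median-ratio scaling (log2 fold change -0.37, adjusted p = 0.141) and when rGST replicate 1 or 2 or rSLURP1 replicate 1 or 3 was left out (adjusted p = 0.0527, 0.116, 0.104 and 0.0975 in limma). The interval reaches from a change of almost none to one of -0.99, so at these levels the data do not set the size of the change.

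**Figure D2:**
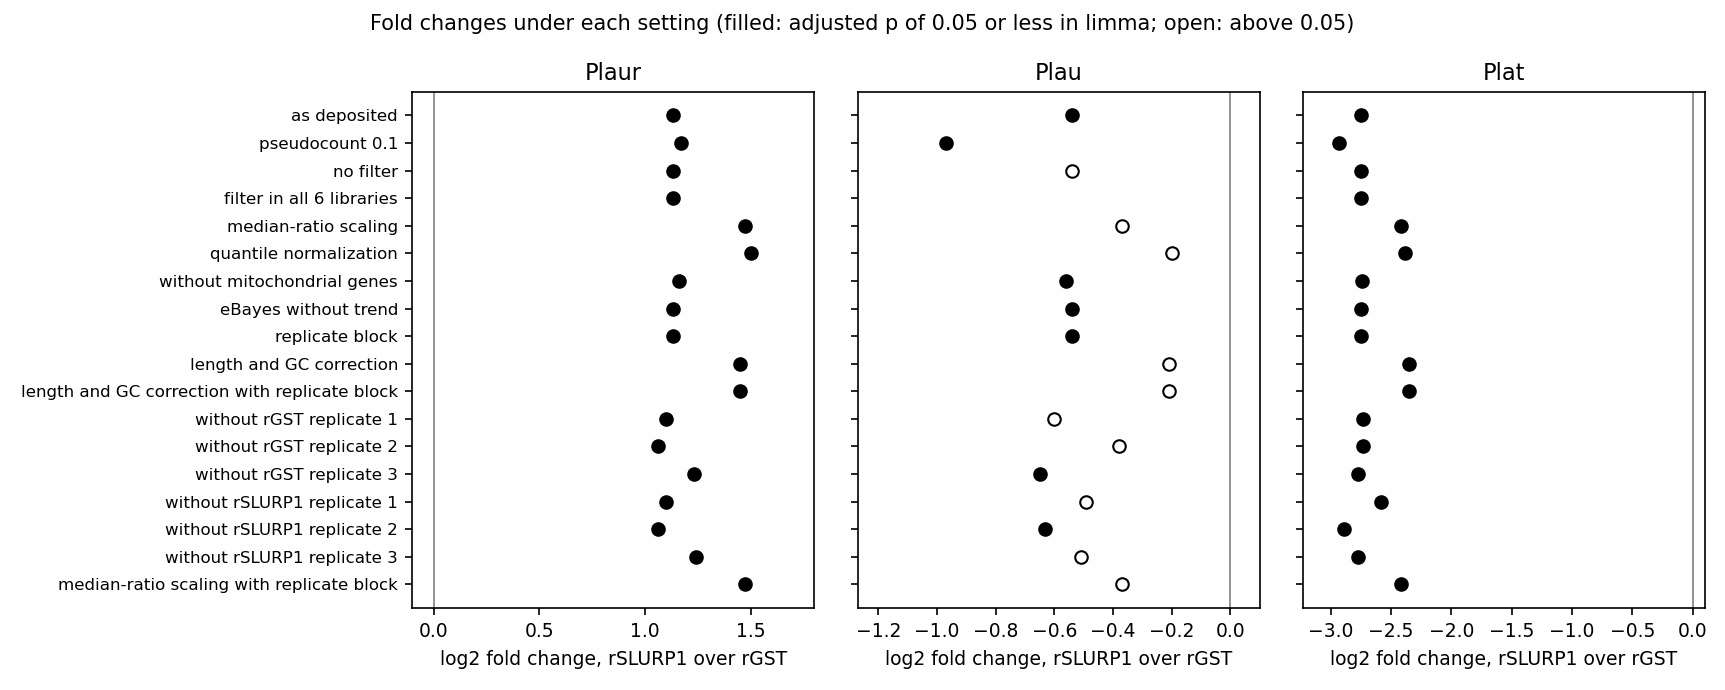
Log2 fold change, rSLURP1 over rGST (x axes, each with its own range), of Plaur, Plau and Plat under each setting of the processing (rows), filled where the adjusted p in limma was 0.05 or less and open above it. Plaur stays between 1.06 and 1.50 and Plat between -2.93 and -2.35, always filled, while Plau is open in 10 rows and has no value where a TPM of 1 was required in all 6 libraries.

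Serpine2 (ENSMUSG00000026249.10) encodes protease nexin-1, a serpin that inhibits thrombin, uPA, tPA and plasmin, and lies on chr1 from 79794197 to 79861180 on the minus strand. It was listed at 0 in all 3 rGST libraries and at 0, 0.06 and 0.04 TPM with rSLURP1. Serpinb2 (ENSMUSG00000062345.10), also on chr1 from 107511423 to 107535478 on the plus strand, encodes PAI-2, an inhibitor of uPA and tPA that is mostly kept inside the cell. It was at 0, 0.06 and 0.04 TPM with rGST and at 0, 0.14 and 0 TPM with rSLURP1. The groups overlapped in both genes, neither passed the filter, and neither is given a fold change. An exact 0 in such a table can be a failed estimate, and the read depth behind these values is unknown. The annotated extent of Serpinb2 overlaps that of Serpinb10 on the same strand, while Plaur, Plau, Plat and Serpine2 overlap no other annotated gene.

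The labelled cell type and other cell types were checked by their markers. Of 10 mammary epithelial markers Krt18 made up nearly all of a sum of 194 to 201 TPM with rGST and 198 to 201 TPM with rSLURP1, 7 were below 0.5 TPM in every library, and Epcam, Krt5, Krt14 and Cldn7 were listed at 0. The summed TPM of 10 fibroblast and mesenchymal markers was 2252 to 2480 with rGST and 726 to 780 with rSLURP1. The 6 tested were lower, beside 58.5% of all tested genes, Col1a1 having passed the filter through rGST alone. The summed TPM of 10 leukocyte markers was 17.5 to 20.9 with rGST and 48.6 to 56.2 with rSLURP1, in the same direction as Plaur. That sum was nearly all Cd14 and Cd68, with Ptprc and Csf1r, which define leukocytes and macrophages, at 0.05 TPM or less in every library. The summed TPM of 8 endothelial markers was 6.24 to 6.44 with rGST and 1.80 to 2.85 with rSLURP1, with Kdr at 0 and Cdh5 at 0.04 TPM or less. That sum was mostly Flt1, from a mean of 4.29 to 0.807 TPM, and Eng, from 1.75 to 0.87 TPM. Flt1 passed the filter through rGST alone, and Vwf, below the filter, went the other way, from 0.130 to 0.513 TPM. The part of these markers in the values of Plaur and Plat was not tested, and in bulk libraries fewer cells of a type and less RNA per cell cannot be told apart.

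Plain ratios between transcripts of the same library do not depend on how the library was scaled. The ratio of Plaur to Plau TPM was 12.4, 7.24 and 16.9 in the rGST libraries and 69.6, 45.1 and 51.7 in the rSLURP1 libraries, so that transcripts of the receptor outnumbered those of its ligand in all 6 libraries. The log2 ratio of TPM + 1 was 2.85 ± 0.434 with rGST and 4.52 ± 0.170 with rSLURP1 (SD, n = 3), a difference of 1.68 (exact permutation test, two-sided, p = 0.1). Of that difference 1.13 is the log2 fold change of Plaur, and the rest is that of Plau, which the limits given above for Plau touch as well. The ratio of Plaur to Plat, added after the data were seen, went from 0.377, 0.355 and 0.478 to 9.73, 6.14 and 5.81. Receptor transcripts were thus below tPA transcripts in each rGST library and above them in each rSLURP1 library, with a difference in the log2 ratio of 3.88. For summed Serpine2 and Serpinb2 against summed Plau and Plat the log2 ratio was -5.44 ± 0.067 with rGST and -2.74 ± 0.194 with rSLURP1 (SD, n = 3), a difference of 2.71 (exact permutation test, two-sided, p = 0.1). Because both inhibitors are at or near 0, the added pseudocount of 1 makes up nearly all of its numerator, and the difference is that of Plat.

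**Figure D3:**
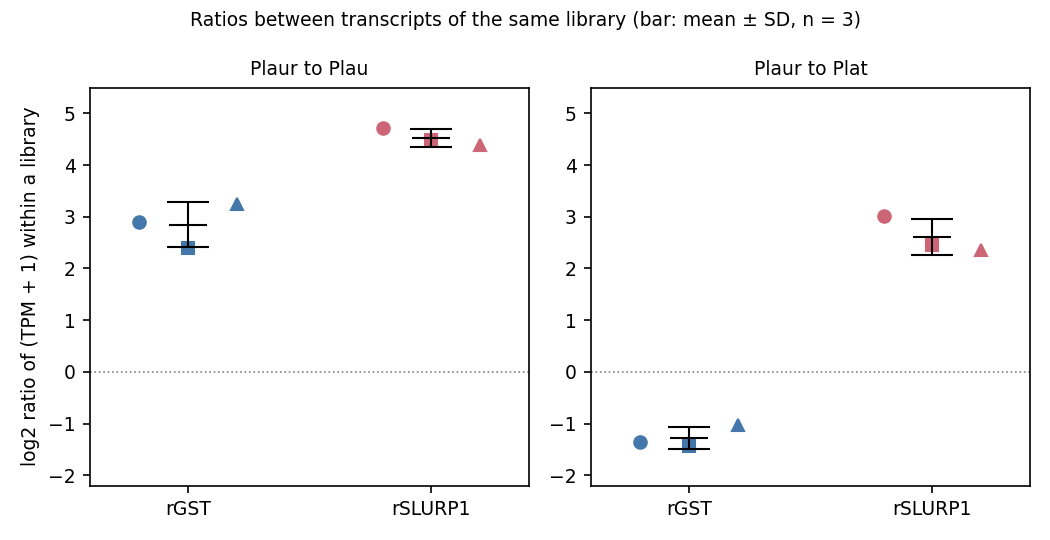
Log2 ratio of TPM + 1 between transcripts of the same library (y axis) in the 3 rGST (blue) and 3 rSLURP1 (red) libraries, for Plaur to Plau and Plaur to Plat, with bars for the mean ± SD and symbols for replicates 1, 2 and 3. Plaur to Plat is below 0 (equal amounts, dotted) in every rGST library and above 0 in every rSLURP1 library, and Plaur to Plau is above 0 in all 6.

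Of 16 genes listed as serpins and inhibitors of the plasmin system and reported here, Serpine2 and Serpinb2 among them, 6 were tested. As deposited 4 were lower, beside 58.5% of all tested genes, and 2 did not pass the threshold. The median log2 fold change of the list was -0.29, beside -0.33 over all tested genes. With median-ratio scaling 2 were higher and 2 lower, beside 26.0% and 25.2%, with a median of 0.01. The list was thus near all tested genes in both. Among the lower genes Serpinf1, which encodes PEDF, a secreted serpin that does not inhibit proteases, went from 108 ± 5.15 to 2.63 ± 0.206 TPM (log2 fold change -4.91, adjusted p = 2.97e-08 in limma). The highest of the list, Serpinh1, encodes the collagen chaperone HSP47, also without protease inhibition. It was at 543 ± 9.31 and 538 ± 11.6 TPM, with a log2 fold change of -0.01 (adjusted p = 0.712 in limma) that became 0.34 with median-ratio scaling (adjusted p = 7.08e-05 in limma).

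Plasminogen is activated while bound to receptors on the cell surface, and its activators are cleared by other receptors that take them into the cell. Plg, plasminogen itself, was listed at 0 in 5 libraries and at 0.03 TPM in rSLURP1 replicate 2. All 5 tested genes of plasminogen receptors were lower, beside 58.5% of all tested genes. Their median log2 fold change was -0.46, beside -0.33 over all tested genes. Anxa2 and Eno1 were near the latter, at -0.31 and -0.32, and Plgrkt, S100a10 and Hmgb1 were lower, at -0.46, -0.61 and -0.74. With median-ratio scaling 2 were lower in limma, beside 25.2% of all genes, and none higher, also at an unadjusted p under 0.05. S100a10, a partner of annexin A2 that binds plasminogen and tPA, was the highest at 1396 ± 27.4 TPM with rGST and 917 ± 18.9 TPM with rSLURP1 (log2 fold change -0.61, adjusted p = 6.86e-06 in limma, and -0.25 after scaling). Of 10 clearance genes 8 were tested, with 1 higher and 6 lower as deposited, beside 8.66% and 58.5% of all genes, and 2 higher and 3 lower after scaling, beside 26.0% and 25.2%, which is near the share of all genes. Of the 6, Sorl1 reached a TPM of 1 in 3 rGST libraries and 1 rSLURP1 library, and with no filter its call was lost (adjusted p = 0.0784 in limma) and 5 were lower. The receptor Lrp1, which takes up uPA and tPA bound to their inhibitors, went from 320 ± 4.02 to 147 ± 5.23 TPM (log2 fold change -1.12, adjusted p = 8.22e-07 in limma, and -0.76 after scaling). Mrc2, which encodes a collagen receptor also known as the uPAR-associated protein, went from 61.6 ± 0.919 to 15.5 ± 1.07 TPM (log2 fold change -1.93, adjusted p = 5.72e-07 in limma, and -1.58 after scaling). Lrp8, a receptor of the same family as Lrp1, was the 1 higher gene, with a log2 fold change of 0.28 (adjusted p = 0.00740 in limma) that became 0.61 after scaling.

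Most tested partners through which uPAR is known to signal were lower with the TPM as deposited, as were 58.5% of all tested genes. Of 16 listed ligands, integrins and receptors 9 were tested. As deposited 8 were lower and none higher, beside 58.5% and 8.66% of all tested genes. None was higher at an unadjusted p under 0.05 in limma either. Their median was -0.48, beside -0.33 over all tested genes. After scaling 3 were higher and 5 lower, beside 26.0% and 25.2%. The median of the list was then -0.13, so fewer of them were lower and the median moved toward 0. Itgav and Met, called lower as deposited at -0.14 and -0.18, were called higher after scaling, at 0.21 and 0.16. Pdgfrb, a receptor tyrosine kinase reported to work with uPAR and also 1 of the fibroblast markers above, went from 108 ± 5.01 to 19.6 ± 1.60 TPM (log2 fold change -2.40, adjusted p = 3.75e-07 in limma). Cav1, which encodes the membrane scaffold caveolin-1, went from 189 ± 24.5 to 63.8 ± 4.05 TPM (log2 fold change -1.54, adjusted p = 1.01e-05 in limma), and both kept their direction and their call after scaling, at -2.06 and -1.19. Itgb1, the integrin subunit with the highest TPM of the list, went from 522 ± 13.1 to 374 ± 12.5 TPM, with a log2 fold change of -0.48 as deposited and -0.13 after scaling (adjusted p = 0.0148 in limma). Vtn, vitronectin, was listed at 0 in all 6 libraries, and Egfr, at a mean of 0.463 TPM with rGST and 0.0900 TPM with rSLURP1, was below the filter.

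**Figure D4:**
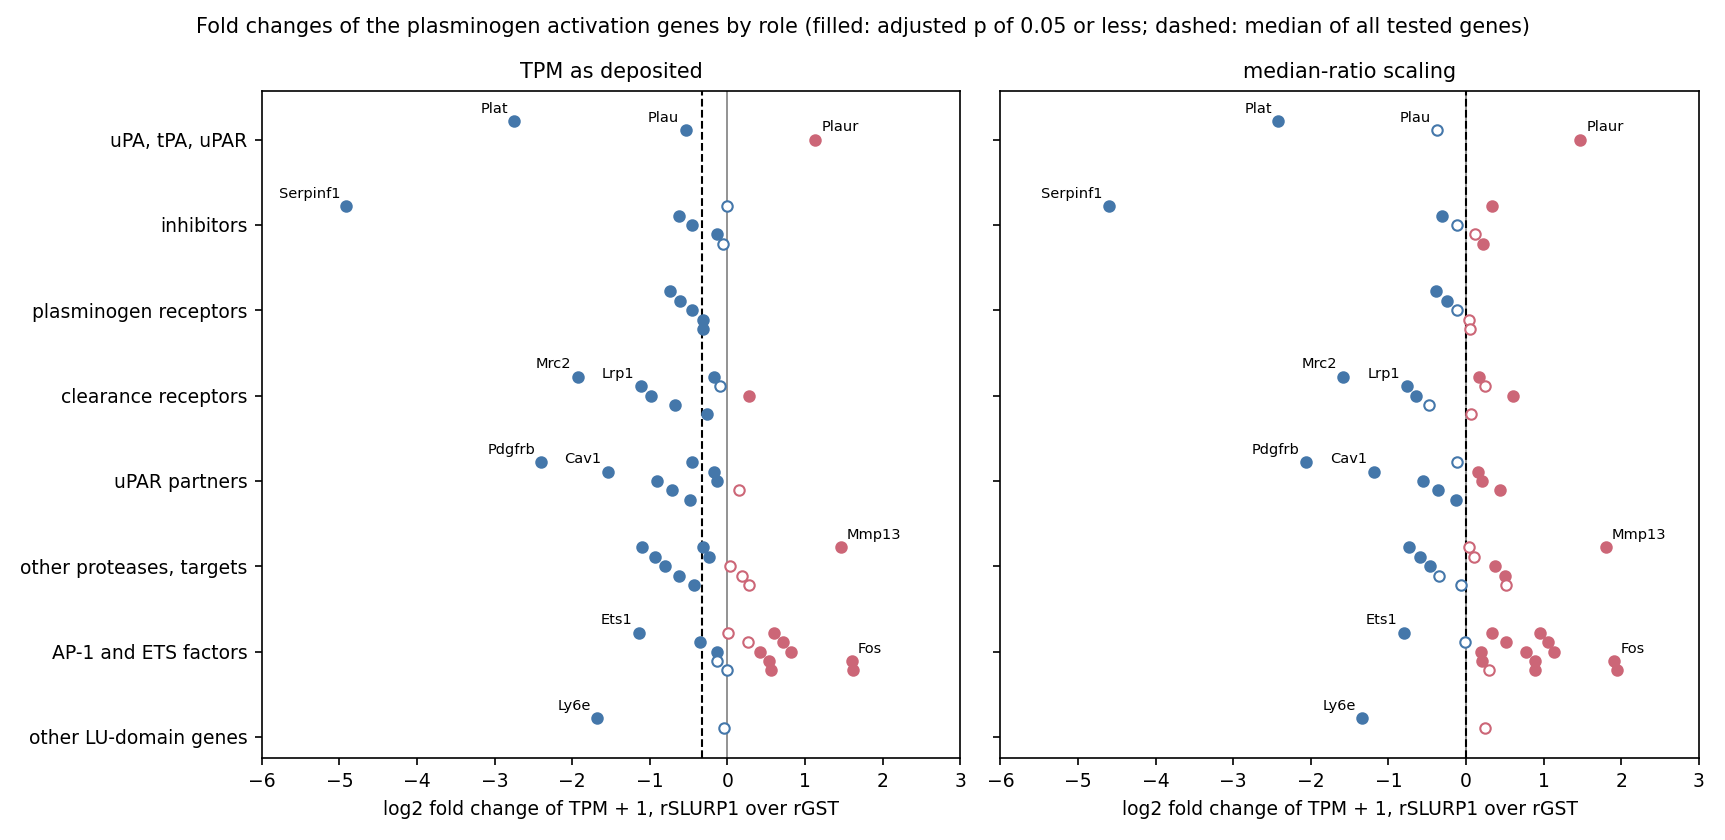
Log2 fold change of TPM + 1, rSLURP1 over rGST (x axis), of the tested genes in each list (rows), with the TPM as deposited (left) and with median-ratio scaling (right). Points are genes, filled where the adjusted p in limma was 0.05 or less, red above 0 and blue below, and the dashed line is the median of all tested genes, -0.33 on the left. Plaur, Mmp13 and Fos lie to the right and Plat, Serpinf1, Mrc2 and Pdgfrb to the left in both panels.

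Of 21 other proteases that plasmin or the activators work with, and their substrates, 11 were tested. As deposited 1 was higher and 7 lower, beside 8.66% and 58.5% of all tested genes. After scaling 3 were higher and 3 lower, beside 26.0% and 25.2%. Both are near the shares of all genes. The 3 with the smallest p were Mmp14, a membrane-bound metalloproteinase (log2 fold change -1.10), Fn1, fibronectin (-0.81), and Tfpi, an inhibitor of tissue factor (-0.94), and all 3 remained lower after scaling, at -0.74, -0.46 and -0.59. Fn1 moved most of the 3 over the alternatives, from -1.06 with quantile scaling to -0.28 once length and GC content were corrected for. The 1 higher gene, Mmp13, an interstitial collagenase, was singled out after its values were seen. It went from 13.3 ± 1.51 to 38.6 ± 7.57 TPM (log2 fold change 1.46, adjusted p = 0.000107 in limma).

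AP-1 and ETS factors are known to act on the regulatory regions of Plau and Plaur. Of 18 such genes 15 were tested, with 8 higher and 3 lower as deposited, beside 8.66% and 58.5% of all genes, and 12 higher and 1 lower after scaling, beside 26.0% and 25.2%. The median log2 fold change of the list was 0.42, and 0.77 after scaling. Fos went from 4.72 ± 1.0 to 16.1 ± 1.12 TPM (log2 fold change 1.60, adjusted p = 4.06e-05 in limma) and Fosl1, which encodes Fra-1, from 35.4 ± 1.38 to 58.8 ± 4.33 TPM (0.71, adjusted p = 5.96e-05 in limma). Ets1 went the other way, from 34.4 ± 3.78 TPM to 14.32, 15.21 and 15.56 TPM (log2 fold change -1.14, adjusted p = 2.53e-05 in limma), and was the 1 lower gene after scaling. The AP-1 genes Jun and Junb were also lower as deposited, at -0.36 and -0.14 (adjusted p = 0.00326 and 0.0283 in limma). After scaling Jun was at -0.01, not past the threshold, and Junb was higher, at 0.21. Whether these factors bear on the level of Plaur was not tested.

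Of 12 other genes with LU domains, as in uPAR, 2 were tested. As deposited 1 was lower and none higher, beside 58.5% and 8.66% of all tested genes. The same held after scaling, beside 25.2% and 26.0%. The lower gene, Ly6e, went from 53.2 ± 8.35 to 15.8 ± 2.19 TPM (log2 fold change -1.68, adjusted p = 3.74e-05 in limma, and -1.34 after scaling). Cd59a, which encodes a complement regulator on a lipid anchor like that of uPAR, was at 5.90 ± 0.164 and 5.71 ± 0.824 TPM, with a log2 fold change of -0.05 that became 0.25 after scaling, neither past the threshold. Slurp1 itself was listed at 0 in all 6 libraries.

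The genes whose pattern over the 6 libraries was most like that of each tested gene were found by the Euclidean distance of their log2(TPM + 1) values, centred on the mean of the gene. For Plaur these were Tnfrsf23, a decoy receptor of the TNF receptor family, at a distance of 0.178, Areg, the EGF receptor ligand amphiregulin, at 0.185, and Akr1c18, a steroid-metabolizing enzyme, at 0.216. Areg was at 21.81, 21.41 and 29.09 TPM with rGST and at 50.52, 58.27 and 42.49 TPM with rSLURP1, so it shared with Plaur a high rGST replicate 3 and a low rSLURP1 replicate 3. For Plat these were Irf7, an interferon regulatory factor, at 0.272, the lincRNA RP24-286N17.2 at 0.358 and Ctgf, a matricellular protein, at 0.359. Irf7 was at 49.33, 45.82 and 41.11 TPM with rGST and at 5.23, 6.94 and 7.0 TPM with rSLURP1, with groups that did not overlap either. For Plau these were RP23-310L8.1 at 0.101, Zfp58 at 0.135 and Ppp1r21 at 0.139, all with their highest value in rGST replicate 2 as in Plau. Distances over 6 libraries describe a likeness of values, and with 3 libraries a treatment many genes can come close.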

How the data were processed

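6 RNAseq libraries of D2A1 spheroids, 3 with rGST and 3 with rSLURP1, were grouped by their sample labels. The authors aligned reads to mm10 and deposited RSEM estimates as TPM, 1 column per library. The submitters' processing notes name bcl2fastq 2.20, cutadapt 1.18, STAR 2.5.2b and RSEM 1.3.3, and other cutadapt and RSEM versions stand in the methods of the study. The library kit is TruSeq mRNA by the labels and Smart-seq2 by the methods. TPM keeps no read depth, so depth and counting error are unknown and precision rests on 3 libraries a treatment. Between 12390 and 12449 genes reached a TPM of 1 with rGST and 11906 to 11981 with rSLURP1, and the 10 highest genes held 11.7% to 12.6% and 13.5% to 15.4% of the total.

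From the deposited TPM, log2(TPM + 1) was tested with limma 3.58.1 (R 4.3.3; lmFit, eBayes with trend) without a block, for genes that reached a TPM of 1 in 3 or more libraries. The thresholds were an adjusted p of 0.05 and a fold change of 2. Exact permutation tests (two-sided) of 3 ratios and 3 genes all gave the smallest p possible, 0.1, which Benjamini-Hochberg adjustment leaves as it is. Coordinates came from GENCODE M21 (GRCm38), which matched 99.9% of gene identifiers, while the methods of the study name an earlier release. Promoter windows came from a RefSeq table that matched Plaur, Serpine2 and Serpinb2 of the 5 genes; Plau and Plat were not matched. The scripts were tested on simulated data. Python 3.11.15, pandas 2.3.3, scipy 1.17.1 and matplotlib 3.10.9 were used.

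The 5 genes and all lists were chosen with earlier results of these data known, and no p-value was adjusted over a list alone. An item of the inhibitor list is not reported here and was left out of that list's counts. Named were all 5 genes; of the inhibitor, plasminogen, clearance and uPAR partner lists, genes called with a fold change of at least 2 and the highest in rGST, with any other tested gene allowed; of the other lists, the 3 smallest p-values; and the 3 genes most like each tested gene. Genes below the filter that are named, and Mmp13, Jun and Junb, were added after their values were seen. Alternatives were a pseudocount of 0.1, no filter, a TPM of 1 required in all 6 libraries, scaling by median ratio or by quantiles, no mitochondrial genes, eBayes without trend, a length and GC correction (loess, span 0.3), the replicate number as a block, and each library left out. Median-ratio scaling with the block and the ratio with Plat were added after the data were seen.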

Additional observations from a re-analysis of the deposited data

How the results depend on the processing

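Plaur and Plat kept their direction and their call under all 17 alternatives, between 1.06 and 1.50 and between -2.93 and -2.35 on the log2 scale (1.06 to 1.24 and -2.89 to -2.58 when each library was left out). Plau kept its direction, but its call was lost with no filter (-0.54, adjusted p = 0.0668 in limma), median-ratio scaling (-0.37, alone and with the replicate block), quantile scaling (-0.20) and the length and GC correction (-0.21, alone and with the replicate block). It was also lost without rGST replicate 1 (adjusted p = 0.0527) or 2 (0.116) and without rSLURP1 replicate 1 (0.104) or 3 (0.0975), with values of -0.65 to -0.38 over the libraries left out. With a pseudocount of 0.1 it was -0.97 with the call kept (0.0406). Over its 16 alternatives the adjusted p ran from 0.0225 to 0.394. A filter in all 6 libraries gave no value for Plau. Serpine2 and Serpinb2 were fitted only with no filter, where neither was called (adjusted p = 0.295 and 0.863 in limma). Of the 3 tested genes, 2 or 3 were called under every alternative.

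The log2 ratio of Plaur to Plau differed by 2.14 with a pseudocount of 0.1 and by 3.88 with Plat in place of Plau, and by 1.45 to 1.88 when each library was left out. That of Serpine2 and Serpinb2 to the activators differed by 3.12 with a pseudocount of 0.1 and by 2.59 to 2.78 when each library was left out. All genes called numbered 8265 as reported and 5567 to 8221 over the alternatives, and 1011 and 682 to 1429 at a fold change of at least 2.

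In the lists, scaling moved the counts. In the order median-ratio scaling, the same with the replicate block, quantile scaling, length and GC correction, and the same with the replicate block, the inhibitors had 2, 2, 0, 2 and 2 genes higher and 2, 1, 2, 2 and 1 lower, against 0 and 4 as reported; with no filter 1 was higher. The plasminogen receptors had 2, 2, 5, 3 and 3 lower against 5, and the clearance receptors had 2, 3, 3, 4 and 4 higher and 3 lower in each, against 1 and 6. The uPAR partners had 3, 2, 2, 3 and 3 higher and 5 lower in each, against 0 and 8. The other proteases and targets had 3, 2, 4, 4 and 4 higher and 3, 3, 5, 3 and 3 lower, against 1 and 7, and 2 higher when eBayes had no trend. The AP-1 and ETS factors had 8 to 12 higher under every alternative, against 8, and 1 lower in each of these 5, against 3. Of the other LU-domain genes 1 was higher with quantile scaling, against 0. Leaving out a library changed these counts by at most 2.

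The replicate number gave no sign of pairing: same-numbered libraries correlated at -0.061 to -0.034 in their deviations from the group means and other pairs at 0.007 to 0.048. The deviations of a group sum to 0 for each gene, so these correlations depend on each other. They cannot show whether same-numbered libraries were prepared together. With the replicate block 7962 genes were called, and Plaur, Plau and Plat stayed at 1.13, -0.54 (adjusted p = 0.0319 in limma) and -2.75. Of the other genes named, Serpinh1 changed sign to 0.34 with median-ratio scaling (alone and with the block), 0.05 with quantile scaling, 0.31 with the length and GC correction (alone and with the block) and 0.01 without mitochondrial genes. Cd59a changed sign to 0.25, 0.34 and 0.22 with median-ratio, quantile and length and GC settings and ran from -0.12 to 0.06 when each library was left out, above 0 without rSLURP1 replicate 1. Among other named genes the log2 fold change ran over the alternatives from -1.06 to -0.28 for Fn1, -1.13 to -0.53 for Lrp1, -0.82 to -0.25 for S100a10, -0.50 to -0.10 for Itgb1, -0.98 to -0.56 for Tfpi, -1.11 to -0.69 for Mmp14, -1.20 to -0.71 for Ets1 and 0.25 to 0.73 for Lrp8, with the calls kept. Depth, which TPM does not keep, limits what can be said of Plau, Serpine2 and Serpinb2. The causes of these changes were not tested.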

Other observations

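The tested genes that lie nearest to Plaur and Plat on the chromosome moved less than they did. On chr7, Smg9, 39.7 kb before Plaur, had a log2 fold change of -0.29 (adjusted p = 0.0518 in limma) and Cadm4, 6.05 kb after it, one of -0.23 (adjusted p = 0.122). On chr8, Ikbkb, 51.1 kb before Plat, had a log2 fold change of -0.34 and Ap3m2, 4.51 kb after it, one of -0.71. With median-ratio scaling these became 0.04, 0.07, 0.00 and -0.40. Nearest to Plau on chr14 were Gm30108 at 0.28 (adjusted p = 0.368 in limma) and Vcl, which encodes the adhesion protein vinculin, at -1.06 (adjusted p = 8.49e-06 in limma). These neighbours were taken by position, and the difference between a gene and its neighbours was not tested.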
